A study of Mus musculus with 3 samples.

Results

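The 6 CXC chemokine genes described here are Pf4 (also called Cxcl4), Cxcl1, Cxcl2, Cxcl9, Cxcl10 and Cxcl16. They were chosen by name from the 32886 gene columns of the count table, and all 6 were present in it. Immune cells were sorted for CD45, a surface protein of leukocytes, from 3 dissected kidney compartments, namely the cortex, the outer medulla (called OM below) and the inner medulla (IM), of healthy male C57BL/6J mice aged 10 weeks, wild type and untouched. The groups differ only in the compartment, and no transgene, allele or treatment was used. Droplet-based single-cell RNA-seq was run in Aachen, Bonn and Hamburg, the Aachen cells with an older chemistry than the other datasets. The cells of 1 compartment in 1 dataset are called a library here, and the 3 datasets are the replicates of the 9 libraries. The labels do not name the animals of each library, so that p-values refer to these datasets and not to animals. The fits below share their estimate of spread over genes, so that a p-value does not measure the spread of its own gene alone.

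The table holds 20266 cells in 23 clusters, with 621 to 3677 cells and 2122809 to 15267126 molecules (UMIs) per library. The median cell held 744 to 1270 UMIs in the Aachen libraries and 2802 to 3505 in the others. All Aachen and Bonn values are whole numbers, while the Hamburg values are estimated counts of which 0.113 to 0.124% are exactly whole. Pairs of libraries shared 0 to 16 cell barcodes. Resident macrophages are the clusters Macrophage_1, Macrophage_2, Macrophage_3 and Isg+_Macrophage, with 5367 cells in all and 168 to 1952 per library. The 9 macrophage markers summed to between 17824 and 25817 CPM (UMIs per 1000000 UMIs) in the libraries of these cells, against 1446 to 4224 in monocytes. Macrophage_3 had no cell in the cortex libraries of Aachen and Hamburg, and the calls made in all resident macrophages are also given without it.

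Chemokines are small secreted proteins that guide leukocytes along gradients, and the CXC family carries a single residue between its first cysteines. Cxcl1 and Cxcl2 bind CXCR2 and draw neutrophils to a site of injury. Cxcl9 and Cxcl10 are induced by interferon and bind CXCR3 on activated T cells and NK cells. Cxcl16 is made as a membrane protein with a chemokine head, is shed by ADAM10 and ADAM17, and binds CXCR6. Pf4 is best known as a product of platelet granules and megakaryocytes, and some tissue macrophages also express it.

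Pf4, Cxcl1, Cxcl2, Cxcl9 and Cxcl10 lie on chromosome 5 and Cxcl16 lies on chromosome 11 (GRCm38, GENCODE vM21). Pf4 (chr5:90772435-90773383), Cxcl1 (chr5:90891241-90893115) and Cxcl2 (chr5:90903871-90905938) are on the plus strand. Cxcl9 (chr5:92321347-92328079) and Cxcl10 (chr5:92346638-92348889) are neighbours on the minus strand, as Cxcl16 (chr11:70453983-70459984) is on its chromosome. All 6 are annotated as protein coding. The RefSeq promoter table of GRCm38.p6 matched 5 of the 6 genes. The 250 bases before each start were searched on both strands for the kappaB consensus and for the core of the interferon-stimulated response element (GAAA, then any 2 bases, then GAAA). The kappaB consensus was found upstream of Cxcl1, Cxcl2 and Cxcl10, and 7.25% of all 32851 promoters of this length held it. Only Cxcl10 among the 5 held the interferon element core, which 2.98% of all promoters held. The stretches with a match are shown, because these genes are read below beside lists of NF-kappaB and interferon targets. Capitals mark the matches, and in Cxcl1 and Cxcl2 as in the second kappaB run of Cxcl10 they cover overlapping matches. A match is a run of letters and not a measured binding site.
Cxcl1 promoter, chr5:90891165-90891240, plus strand: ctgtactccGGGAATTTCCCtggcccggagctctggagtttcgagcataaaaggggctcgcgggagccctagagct
Cxcl2 promoter, chr5:90903799-90903870, plus strand: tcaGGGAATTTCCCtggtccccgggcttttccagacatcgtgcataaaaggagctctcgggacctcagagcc
Cxcl10 promoter, chr5:92348890-92349109, minus strand: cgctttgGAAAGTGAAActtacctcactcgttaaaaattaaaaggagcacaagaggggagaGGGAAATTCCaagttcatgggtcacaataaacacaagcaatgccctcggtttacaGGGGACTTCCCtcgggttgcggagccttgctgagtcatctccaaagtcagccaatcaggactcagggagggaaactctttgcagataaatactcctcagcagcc

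The 6 genes were found in different clusters. A level is given here in CPM, the UMIs of the gene per 1000000 UMIs of the cells named, in each dataset, for the 21 clusters with at least 10 cells in every dataset, and levels are compared between clusters and not between genes. These levels are a description without a test, and 2 neighbours in the order are called different where their mean difference over the 3 datasets exceeded its SD. Pf4 was highest in Macrophage_3, at 663 in the Aachen cells, 349 in those of Bonn and 430 in those of Hamburg (mean 481 ± 163, SD, n = 3). Macrophage_1 followed with 242, 211 and 135, and the gap to Macrophage_3 of 285 ± 142 was larger than its SD and had the same sign in every dataset. Malat+_Macrophage (163 ± 157), Isg+_Macrophage (112 ± 72.8) and Macrophage_2 (87.9 ± 55.4) came next, and none of these neighbours differed beyond its SD. The 4 clusters of resident macrophages and the Malat+ macrophages thus held the 5 highest levels of Pf4. In monocytes Pf4 was at 0, 11.9 and 14.4 CPM in the order Aachen, Bonn, Hamburg.

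**Figure D1:**
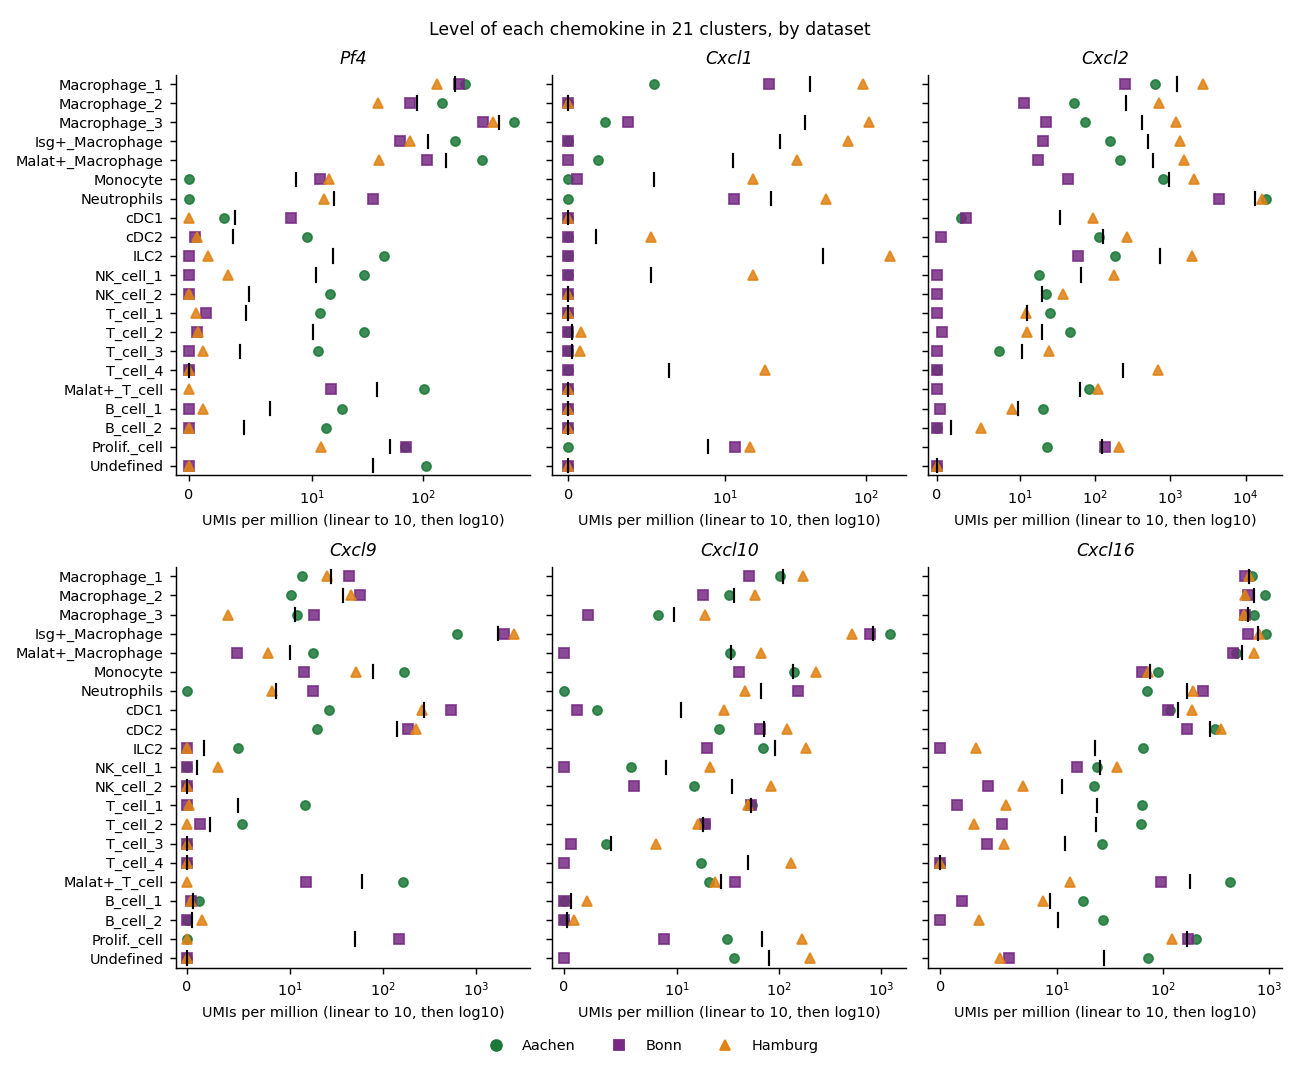
Level of each gene (x axis, CPM, linear up to 10 and log10 above) in the 21 clusters (rows), with a point per dataset and a bar at the mean of the 3 datasets. Pf4 and Cxcl16 sit highest in the macrophage clusters, Cxcl2 in neutrophils, and Cxcl9 and Cxcl10 in Isg+_Macrophage, while Cxcl1 is near 0 outside the Hamburg dataset.

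Cxcl2 was highest in neutrophils, with 18597, 4437 and 16664 CPM in the order Aachen, Bonn, Hamburg (13233 ± 7679, n = 3). Macrophage_1 was second with 624, 249 and 2756, and monocytes were next with 797, 44.0 and 2037. The step from neutrophils to Macrophage_1 exceeded its SD and the steps after it did not, down to Macrophage_3. Levels of Cxcl2 in Hamburg were above those of both other datasets in every one of the 4 resident macrophage clusters. Neutrophils numbered 25 in Aachen, 51 in Bonn and 197 in Hamburg and nonetheless held 16.5, 48.5 and 48.6% of all Cxcl2 UMIs of these datasets. Macrophage_1 held a further 49.9, 36.5 and 20.5%.

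Cxcl1 was nearly confined to one dataset. In Hamburg it reached 149 CPM in ILC2, a lymphoid cell of tissues, 105 in Macrophage_3, 94.9 in Macrophage_1 and 74.5 in Isg+_Macrophage. In Aachen and Bonn no cluster exceeded 20.6, the Bonn level of Macrophage_1. All Cxcl1 UMIs numbered 10 in Aachen, 61 in Bonn and 464 in Hamburg. Macrophage_2 held no Cxcl1 UMI in any library. ILC2 lost the first place to Macrophage_1 (33.4 against 31.7) when each cell was thinned to 500 UMIs.

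Cxcl9 and Cxcl10 were both highest in Isg+_Macrophage, a cluster named for interferon-stimulated genes. Cxcl9 stood there at 625, 1988 and 2542 CPM (1719 ± 987, n = 3), and the step to the next cluster exceeded its SD. Next were the conventional dendritic cells, with 26.2, 541 and 262 in cDC1 and 19.3, 185 and 224 in cDC2. Cxcl10 stood at 1211, 776 and 511 in Isg+_Macrophage (833 ± 354) and at 138, 40.4 and 228 in monocytes. Isg+_Macrophage held 40.2, 36.4 and 52.6% of all Cxcl9 UMIs with 1.55, 0.861 and 1.57% of the cells of Aachen, Bonn and Hamburg. Because interferon-stimulated genes define this cluster, its level is no independent finding for interferon-induced members. Below Isg+_Macrophage, the levels of Cxcl10 in monocytes, Macrophage_1 (108 ± 60.2) and ILC2 (90.7 ± 83.3) did not differ beyond the SD of their differences.

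Cxcl16 was the most even of the 6 across datasets. Its level was 938, 633 and 802 CPM in Isg+_Macrophage, 925, 638 and 598 in Macrophage_2, 685, 595 and 654 in Macrophage_1 and 724, 591 and 586 in Macrophage_3. The 4 did not differ from their neighbours beyond the SD, and after thinning Macrophage_2 came first. The step from Malat+_Macrophage (555 ± 140) to cDC2 (277 ± 96.0) exceeded its SD. In B_cell_1 the mean was 9.41 and in T_cell_1 23.6.

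Cxcr2, the receptor of Cxcl1 and Cxcl2, stood at 355, 516 and 253 CPM in neutrophils, and its mean was at most 2.73 in every other cluster, so that neutrophils held the highest level both of Cxcl2 and of its receptor. Cxcr3 was highest in T_cell_1 (222, 580 and 316) and in NK_cell_2 (176, 424 and 237), and it was also found in cDC1 (mean 113), the cluster second in Cxcl9. Cxcr6 was highest in T_cell_4 (735, 1433 and 940), followed by T_cell_1 (400, 1149 and 642). Cxcr6 in ILC2 stood at 210, 648 and 614. In resident macrophages none of the 9 libraries exceeded 38.3 for Cxcr3 or 44.8 for Cxcr6.

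The share of cells with a UMI was compared after thinning each cell to 500 UMIs, since libraries differ in depth. Of the resident macrophages, 222 of 5367 were shallower and were left out. Cxcl16 was detected in 31.3% of the thinned resident macrophages in Aachen, 27% in Bonn and 27.7% in Hamburg. Before thinning the shares were 49.9, 88.7 and 80.9%. T and B cells, which serve here as a background that may hold free RNA, showed Cxcl16 in 1.32, 0.0586 and 0.505% of thinned cells. The shares in macrophages were thus above that background in every dataset. The median depth before thinning was 929, 4499 and 3298 UMIs in the macrophages and 935, 2935 and 2897 in the T and B cells.

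Pf4 was detected in 12.5% of thinned resident macrophages in Aachen (95% exact binomial interval 11.3 to 13.8), 7.86% in Bonn and 5.65% in Hamburg, against 0.484, 0 and 0.0842% of T and B cells. The count of 0 among 3413 Bonn cells allows a share of up to 0.0879%. Within the macrophages, Pf4 was found in 24.2, 15.0 and 13.2% of Macrophage_3, in 8.67, 9.44 and 5.54% of Macrophage_1 and in 6.13, 2.81 and 1.91% of Macrophage_2. The order Macrophage_3, Macrophage_1, Macrophage_2 was the same in the 3 datasets. Without thinning, Pf4 was found in 20.8, 38.7 and 25.2% of resident macrophages. Intervals and limits cover counting error only.

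Cxcl2 was detected in 100% of the 12 thinned neutrophils of Aachen, 58.8% of those of Bonn and 98.0% of those of Hamburg. In resident macrophages it was found in 6.91, 2.08 and 27.1% of cells, against 0.793, 0 and 0.814% of T and B cells. Cxcl9 was found in 15.5, 17.0 and 25.7% of Isg+_Macrophage cells and in 0.886, 1.56 and 3.18% of all resident macrophages. The shares for Cxcl10 were 22.7, 15.1 and 11.9% of Isg+_Macrophage and 2.59, 0.964 and 4.52% of all resident macrophages. T and B cells showed Cxcl10 in 0.528, 0.264 and 0.730%. This background was uneven, with Cxcl10 at 54.4, 53.3 and 49.3 CPM in T_cell_1 and means of 4.18 in T_cell_3 and 0.677 in B_cell_1. The part of free RNA in it was not tested. Cxcl1 was found in 1.33% of resident macrophages in Hamburg and in 0.106 and 0.148% in Aachen and Bonn.

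Few cells carried most of the Cxcl9 and Cxcl10. In the resident macrophages of Bonn OM, 10 of 168 cells held all 392 UMIs of Cxcl9 and 1 of them held 172. In Hamburg cortex, 1 of 232 macrophages held 55.1% of the 420 Cxcl9 UMIs. Over the 9 libraries the highest single macrophage held 15.4 to 55.1% of the Cxcl9, 11.3 to 53.5% of the Cxcl10 and only 0.541 to 3.16% of the Cxcl16. For Pf4 this share was 1.04 to 9.76%. Levels of Cxcl9 and Cxcl10 in a library therefore rest on fewer cells than those of Pf4 and Cxcl16.

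Cxcl9 and Cxcl10 were often detected in the same macrophages. Of the resident macrophages with a Cxcl9 UMI, 37.2% in Aachen (43 cells), 21.7% in Bonn (60 cells) and 41.3% in Hamburg (63 cells) also held Cxcl10, against 3.63, 3.18 and 9.44% of those without. Cells with Cxcl9 were deeper, with medians of 1336, 6524 and 4866 UMIs against 887, 4368 and 3257. Both genes were also highest in Isg+_Macrophage, and these shares pool the clusters. The parts of depth and of cluster makeup in this were not tested. In Hamburg, 80.0% of the 40 macrophages with Cxcl1 also held Cxcl2, against 41.1% of the 934 without. Cxcl9 was detected in 1.42% of the macrophages with Pf4 and 1.41% of those without it in Aachen, in 4.60 and 4.35% for Bonn and in 2.86 and 7.68% for Hamburg. These shares are descriptions of cells, which are not replicates.

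The main comparison asked which of the 6 genes differ between the medulla and the cortex within resident macrophages. The summed UMIs of each library entered edgeR's quasi-likelihood test over 8687 genes with the dataset as a block. Pf4 rose in the medulla, and no other member was called. This is 1 of 6 members, beside 108 calls or 1.24% of all genes (0.645% higher in the medulla). In the order cortex, OM, IM, Pf4 stood at 108, 484 and 128 CPM in Aachen, at 83.1, 248 and 244 in Bonn, and at 57.0, 185 and 165 in Hamburg. All 6 medulla libraries were above all 3 cortex libraries, although the Aachen IM library was close to the Aachen cortex. Each Aachen library holds 2 barcode suffixes, whose meaning the labels do not give. By suffix, Pf4 stood at 160 and 96.5 CPM in Aachen IM and at 110 and 106 in the Aachen cortex. The lower IM value was thus below both cortex values. Over all libraries, the log2 fold change of the medulla against the cortex was 1.57 ± 0.26 (SE, adjusted p = 0.0141). Within the datasets the medulla exceeded the cortex by 1.2, 1.55 and 1.6 on the log2 scale of the level plus 1 CPM. OM exceeded cortex by 1.88 ± 0.29 on the log2 scale (adjusted p = 0.0116 in edgeR, 1 of 6 members beside 0.852% of genes). IM against cortex gave 1.26 ± 0.29 with an adjusted p of 0.117 (0 of 6 members beside 0.196%, with 623 genes at an unadjusted p under 0.05), and OM against IM gave 0.63 ± 0.28 with an adjusted p of 1 in edgeR. Both were refitted in 4 alternatives, namely DESeq2 and edgeR without each dataset. IM against cortex ranged from 0.95 to 1.58 and was called in 1 of the 4, in edgeR without Aachen (1.58, adjusted p = 3.39e-05). The highest adjusted p of the 4 was 0.905. OM against cortex ranged from 1.59 to 1.99 and lost its call in 1 of the 4, with an adjusted p of 0.0890.

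**Figure D2:**
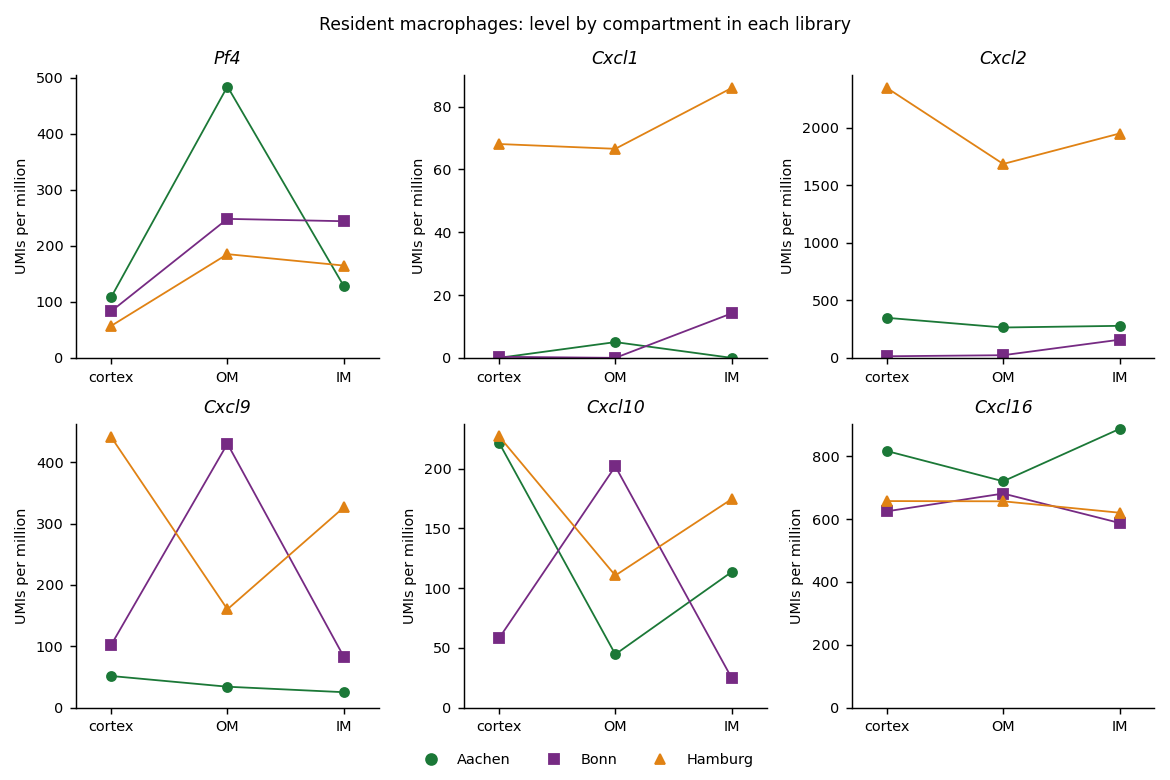
Level of each gene (y axis, CPM) in the resident macrophages of cortex, OM and IM, with a line for each dataset. Pf4 is lowest in the cortex in each of the 3 datasets, Cxcl16 stays between 588 and 887, and Cxcl1 and Cxcl2 differ more between datasets than between compartments.

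The call for Pf4 was lost without some of the libraries and without Macrophage_3. The part of cluster makeup in this was not tested. The adjusted p in edgeR was 0.151 without Hamburg (log2 fold change 1.52), 0.0553 without the Bonn cortex library and 0.0575 without the Hamburg cortex library. Without Macrophage_3 the log2 fold change was 1.22 ± 0.27 with an adjusted p of 0.0957, and 3 genes were called in each direction. OM against cortex then gave 1.41 ± 0.30 with an adjusted p of 0.183 in edgeR. Without the dataset block it was 1.5 with an adjusted p of 1.

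Macrophage_3, the cluster with the highest Pf4, made up 0, 44.7 and 1.17% of the resident macrophages in cortex, OM and IM of Aachen, 7.05, 42.9 and 43.1% for Bonn and 0, 23.0 and 15.4% for Hamburg. It held 63.5% of the Pf4 UMIs of the macrophages in Aachen OM, 70.4% in Bonn OM and 40.9% in Hamburg OM. In Aachen IM, where it was nearly absent, it held 8.05%. Within Macrophage_3 a cortex library with at least 10 cells existed only in Bonn, where Pf4 was at 425 in cortex, 390 in OM and 328 in IM. No fit was made in this cluster.

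Within Macrophage_1 Pf4 also rose in the medulla. It stood at 124, 357 and 164 CPM in cortex, OM and IM of Aachen, at 149, 174 and 217 for Bonn and at 70.8, 181 and 130 for Hamburg. Every medulla library was above the cortex library of its own dataset, while Hamburg IM was below the Bonn cortex. The log2 fold change was 0.995 ± 0.22 (adjusted p = 0.0261, 1 of 6 members called in edgeR beside 0.516% of 6978 genes). OM against cortex gave 1.22 ± 0.24 (adjusted p = 0.00979 in edgeR, 1 of 6 members beside 0.473%). DESeq2 gave 0.92 for the medulla with an adjusted p of 0.486. The call in edgeR was lost without Aachen (0.89, adjusted p = 0.227), without Hamburg (0.90, adjusted p = 0.539) and without 5 of the 9 single libraries, with log2 fold changes of 0.76 to 0.97. The Bonn cortex library holds 24 cells of this cluster. An exact permutation test of the compartments within datasets gave p = 0.0741 for a mean log2 difference of 0.81 ± 0.38 (SD, n = 3, two-sided, 27 arrangements, adjusted p over the 6 members 0.278).

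In Macrophage_2 Pf4 stood at 96.3, 275 and 89.5 in Aachen, 67.2, 114 and 113 for Bonn and 32.0, 55.2 and 22.2 for Hamburg. OM was the highest compartment in each dataset, and IM was below cortex in Aachen and Hamburg. OM exceeded cortex by 1.22 ± 0.25 on the log2 scale (adjusted p = 0.0222 in edgeR, 1 of 5 members tested beside 0.160% of 4989 genes). DESeq2 gave 1.15 for it with an adjusted p of 1, and in edgeR the call was lost without Aachen (0.84, adjusted p = 0.664) and without Hamburg (1.26, adjusted p = 0.0904). The medulla taken as a whole gave 0.73 ± 0.23 with an adjusted p of 0.395 (0 of 5 members beside 0.0200%, 2 at an unadjusted p under 0.05 in edgeR and 2 in DESeq2). In Isg+_Macrophage, Pf4 was at 0, 339 and 185 in Aachen, 31.4, 117 and 75.9 for Bonn and 59.2, 69.0 and 102 for Hamburg, with a log2 fold change of 1.65 ± 0.55 and an adjusted p of 0.528 in edgeR. The compartment effect on Pf4 differed by 0.27 ± 0.35 between Macrophage_1 and Macrophage_2, and the test of this difference gave an adjusted p of 1.

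**Figure D3:**
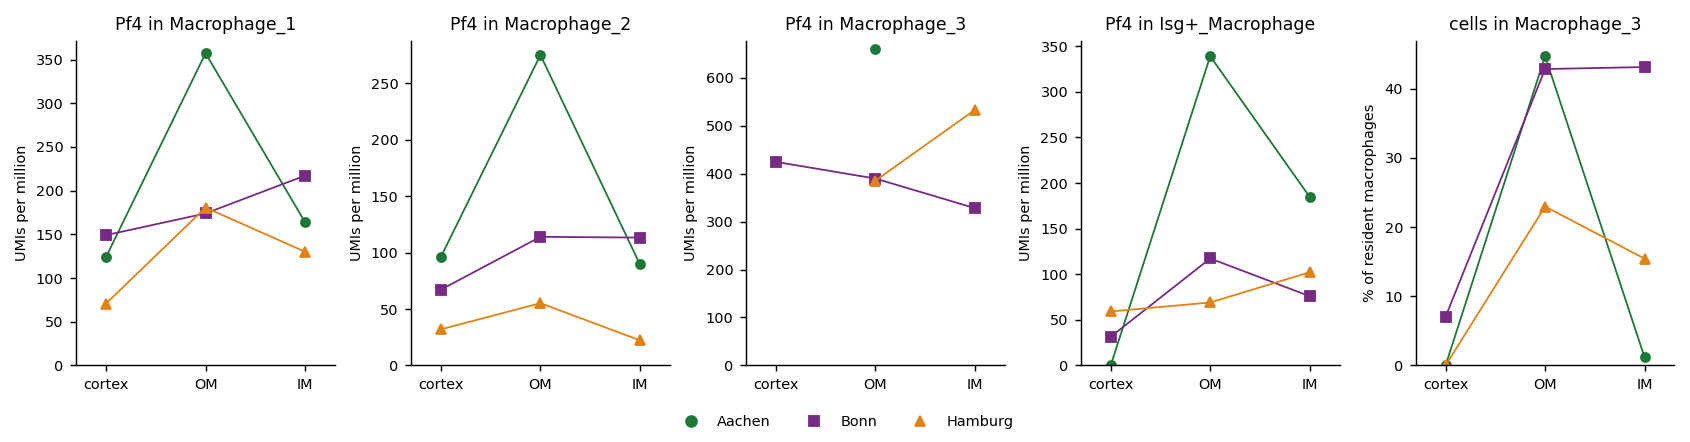
Pf4 (y axis, CPM) in the 4 clusters of resident macrophages by compartment, for libraries with at least 10 cells, and in the right panel the percent of resident macrophages in Macrophage_3. OM is above cortex in each dataset in Macrophage_1, Macrophage_2 and Isg+_Macrophage, and Macrophage_3 is absent from 2 cortex libraries.

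A level with equal weight for Macrophage_1, Macrophage_2 and Isg+_Macrophage removes the differences in their shares of cells. On this scale, log2 of the level plus 1 CPM, Pf4 was higher in the medulla by 3.21 in Aachen, 0.90 in Bonn and 0.58 in Hamburg. The mean was 1.56 ± 1.44 (SD, n = 3), and the exact permutation test gave p = 0.037, the smallest that 27 arrangements allow, with an adjusted p of 0.222 over the 6 members. The Aachen value rests on the count of 0 in 26 Isg+ cells of the cortex, and with 5 CPM added it was 2.43. Cxcl10 was lower in the medulla by this measure in the 3 datasets, by -0.94, -1.45 and -0.38 (exact p = 0.0741, adjusted p = 0.222). The other 4 members gave mean differences from -0.04 to 0.72 with exact p-values of 0.259 and above.

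Cxcl2 ranged more between datasets than between compartments in resident macrophages. It was at 348, 264 and 279 CPM in cortex, OM and IM of Aachen, 13.9, 23.0 and 158 for Bonn and 2348, 1687 and 1952 for Hamburg. The medulla was below the cortex in Aachen and Hamburg and above it in Bonn. Its log2 fold change of 0.33 ± 0.44 had an adjusted p of 0.905 in edgeR and changed sign without Bonn (-0.38), without Macrophage_1 (-0.08) and with equal cluster weights (-0.04). Cxcl1 stood at 68.1, 66.5 and 85.9 in Hamburg and at or below 14.2 elsewhere, with a log2 fold change of 0.79 ± 0.52 (adjusted p = 0.687). When Macrophage_1 was left out, Cxcl1 was called, with a log2 fold change of 6.11 ± 1.05 and an adjusted p of 0.00556 in edgeR. The cells then left in the cortex held no Cxcl1 UMI, so that this value depends on the prior count.

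The level of Cxcl2 in resident macrophages was read beside 8 immediate early genes, such as Fos and Jun, which cells induce within minutes of a stimulus, tissue digestion included. The list summed to 13707, 9194 and 8726 CPM in cortex, OM and IM of Aachen, to 1335, 1815 and 6483 for Bonn and to 30672, 26615 and 29688 for Hamburg. The order of compartments was the same for Cxcl2 and the list in Bonn and Hamburg but not in Aachen, where the list was lower in IM than in OM and Cxcl2 was not. The 15 NF-kappaB and inflammatory genes, a list without Cxcl2, summed to 15011, 6030 and 9261 CPM in Aachen, to 1750, 2224 and 4787 for Bonn and to 25277, 20383 and 22313 for Hamburg, with the order of compartments of Cxcl2 in each dataset. The libraries fall into separate groups by dataset, so that no correlation is given. Of the 8 immediate early genes none was called between medulla and cortex, and their median log2 fold change was 0.30, beside 0.01 over all genes. The part of stimulation during preparation in these levels was not tested.

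**Figure D4:**
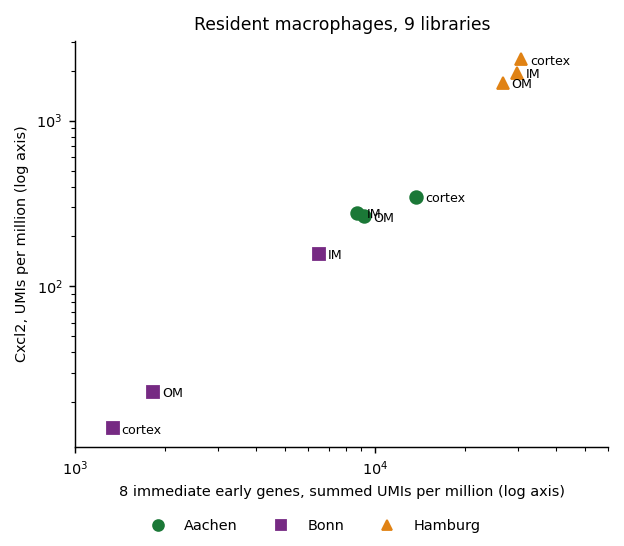
Cxcl2 (y axis) against the summed level of 8 immediate early genes (x axis) in the resident macrophages of the 9 libraries, both as CPM on log axes. The Hamburg libraries are highest on both axes, with Cxcl2 from 1687 to 2348, and the Bonn cortex library is lowest at 13.9.

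Cxcl9 and Cxcl10 had no common direction between compartments in the macrophages. Cxcl9 was at 51.5, 34.0 and 25.1 CPM in cortex, OM and IM of Aachen, 102, 430 and 83.1 for Bonn and 441, 160 and 326 for Hamburg. Its log2 fold change was -0.11 ± 0.44 (adjusted p = 0.988 in edgeR). Cxcl10 was at 222, 44.6 and 114 in Aachen, 58.0, 202 and 24.8 for Bonn and 227, 111 and 174 for Hamburg, with -0.56 ± 0.48 and an adjusted p of 0.802. The OM was the lowest compartment for Cxcl10 in Aachen and Hamburg and the highest in Bonn, where 1 of 168 cells held 98 of 184 UMIs. Cxcl10 was called lower in the medulla of all resident macrophages without Bonn (-1.16, adjusted p = 0.00311), without the Bonn OM library alone (-1.27, adjusted p = 0.0113) and without the filter on low counts (-0.57, adjusted p = 0.00659). Within Macrophage_1 its log2 fold change was -1.09 ± 0.35 with an adjusted p of 0.233 in edgeR, and it was called without Hamburg (-1.97, adjusted p = 0.0328) and without the Hamburg cortex library (-2.05, adjusted p = 0.000478). In Macrophage_2, Cxcl9 had a log2 fold change of 1.58 ± 0.33 with an adjusted p of 0.0609, and it was called without Hamburg (1.87, adjusted p = 0.00173).

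Cxcl16 did not differ detectably between compartments. Its level was 817, 721 and 887 in Aachen, 625, 682 and 588 for Bonn and 658, 657 and 621 for Hamburg. The log2 fold change was -0.01 ± 0.12 (adjusted p = 1 in edgeR), and the values without each dataset or library ranged from -0.05 to 0.03. Adam10 and Adam17, which shed the protein, gave 0.29 ± 0.15 and -0.13 ± 0.14 without a call.

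Other CXC genes and their neighbours in the pathways were read in the same fit of the resident macrophages. Of 15 CXC ligands, Cxcl11 has no column, 7 passed the filter on low counts and Pf4 alone was called. Cxcl14 gave 0.97 ± 0.24 with an adjusted p of 0.0679, and Cxcl13 and Cxcl5 had no UMI. Of 8 CXC receptors 3 were tested and none was called, with Cxcr4 at 0.60 ± 0.21, Cxcr3 at -1.26 ± 0.36 and Cxcr6 at -1.96 ± 0.66 (adjusted p from 0.134 to 0.243 in edgeR). Cxcr3 and Cxcr6 were highest in T cells and NK cells. The T cell markers summed to 48.2 to 281 CPM in the macrophages, and their median log2 fold change over the 6 tested was -1.48. Among these 6, Cd4 alone was above 0 (0.64 ± 0.17, adjusted p = 0.0968 in edgeR). The part of T cell RNA in the values of Cxcr3 and Cxcr6 was not tested. Without the 1229 macrophages that held at least 2 UMIs of T or B cell markers, Pf4 was still called.

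Of 19 interferon targets all were tested, and 2 fell in the medulla, beside 52 of all 8687 genes called lower. Of the 19, 16 had a log2 fold change below 0, with a median of -0.38 beside 0.01 over all genes. The 2 were Ifit2 (-1.21 ± 0.18, adjusted p = 0.00873 in edgeR) and Rsad2 (-0.98 ± 0.19, adjusted p = 0.0212), both antiviral proteins. Without Macrophage_3, Ifit2 alone of the 19 was called (-1.02 ± 0.17, adjusted p = 0.0414 in edgeR), beside 3 of 8610 genes called lower. The median of the 19 was then -0.12. Of 14 NF-kappaB and inflammatory genes tested none was called, with a median of -0.03. Of 10 genes of perivascular macrophages, a list chosen with earlier results of these data known, 5 were tested. Because of how the list was chosen, the number called in it is no independent finding. Beside 0.645% of all genes called higher, all 5 of the tested genes were called higher, with a median of 1.70. They were the growth factor Igf1 (1.70 ± 0.28), the bridging ligand Gas6 (2.34 ± 0.28), the scavenger receptor Stab1 (1.40 ± 0.19), the mannose receptor Mrc1 (0.97 ± 0.18) and the coagulation factor gene F13a1 (3.28 ± 0.67), with adjusted p-values from 0.00219 to 0.0283 in edgeR. Without Macrophage_3, Gas6 alone of the 5 was called (1.83 ± 0.30, adjusted p = 0.0414), and the median of the 5 was 1.34. Lyve1 of the same list had no UMI in these cells, and Folr2 and Timd4 had 2 and 5.96. The list summed to 150.5, 446 and 196 CPM in cortex, OM and IM of Aachen, 399, 912 and 897 for Bonn and 181, 583 and 525 for Hamburg, the same order of compartments as for Pf4 in each dataset. In the median library it was at 1184 CPM in Macrophage_3, against 232 to 505 in the other clusters of resident macrophages. The part of cluster makeup in this shared order was not tested.

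Platelets were measured because Pf4 is abundant in them. The platelet markers Gp1bb, Treml1 and Tubb1 had no UMI in the resident macrophages. Ppbp, the other main chemokine of platelets, had 16.9 UMIs in 5367 macrophages and was at 0 in the median library, with 14.2 CPM in the highest. Gp9 had 3.97 and Itga2b 5.86 UMIs, against 2942 for Pf4. The 13 platelet genes summed to 7.25 to 25.9 CPM per library, and none passed the filter on low counts. Without the 118 macrophages that held a platelet marker UMI, Pf4 was still called in edgeR. The tubule marker Kap rose by 3.01 ± 0.53 (adjusted p = 0.0174; 0.0927 without Macrophage_3), with 4.89 to 199.8 CPM for the tubule list. The part of free tubule RNA in the Pf4 result was not tested.

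In monocytes Cxcl10 fell in the medulla. It stood at 362, 0 and 0 CPM in cortex, OM and IM of Aachen, at 56.7, 6.92 and 12.9 for Bonn and at 576, 109 and 124 for Hamburg. The cortex was the highest compartment in the 3 datasets, although the Hamburg medulla libraries were above the Bonn cortex. The log2 fold change was -2.53 ± 0.22 (adjusted p = 1.26e-18 in edgeR, 1 of 4 members tested beside 0.332% of 6029 genes, 0.232% lower). DESeq2 gave -3.05 ± 0.60 with an adjusted p of 0.0024. Within Aachen, Bonn and Hamburg the medulla differed from the cortex by -8.50, -2.46 and -2.30 on the log2 scale of the level plus 1 CPM. The Aachen value rests on counts of 0 in OM and IM, so that its size depends on the 1 CPM added. The mean of the 3 differences, which carries this limit, was -4.42 ± 3.54 (SD, n = 3). The edgeR SE draws on the spread of other genes and does not measure this spread between datasets. The exact permutation test of these differences gave p = 0.037, the smallest possible, with an adjusted p of 0.222 over the members. OM and IM were lower than cortex by -2.63 ± 0.28 and -2.42 ± 0.27, both called (beside 0.332 and 0.249% of genes). Without the Aachen dataset the value was -2.35 and without Bonn -2.61, and both were called. Without Hamburg the gene did not pass the filter.

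Few monocytes carried this difference. In Aachen cortex 2 of 28 monocytes held Cxcl10 and 1 of them held 22 of 23 UMIs. In Hamburg cortex 15 of 69 did and 1 held 53.1% of the UMIs, while in Bonn cortex it was 13 of 185. The share of monocytes with a Cxcl10 UMI was 7.14, 0 and 0% in Aachen, 7.03, 4 and 3.33% for Bonn and 21.7, 8.44 and 4.90% for Hamburg. The cortex was again highest in each. When the cell with the most Cxcl10 was left out of every library, the levels were 16.4, 0 and 0 in Aachen, 42.1, 0 and 4.38 for Bonn and 276, 70.0 and 51.9 for Hamburg. The log2 fold change was then -2.37 ± 0.28 with an adjusted p of 1.71e-08 in edgeR, again with the spread shared over genes. Aachen then rested on 1 UMI.

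**Figure D5:**
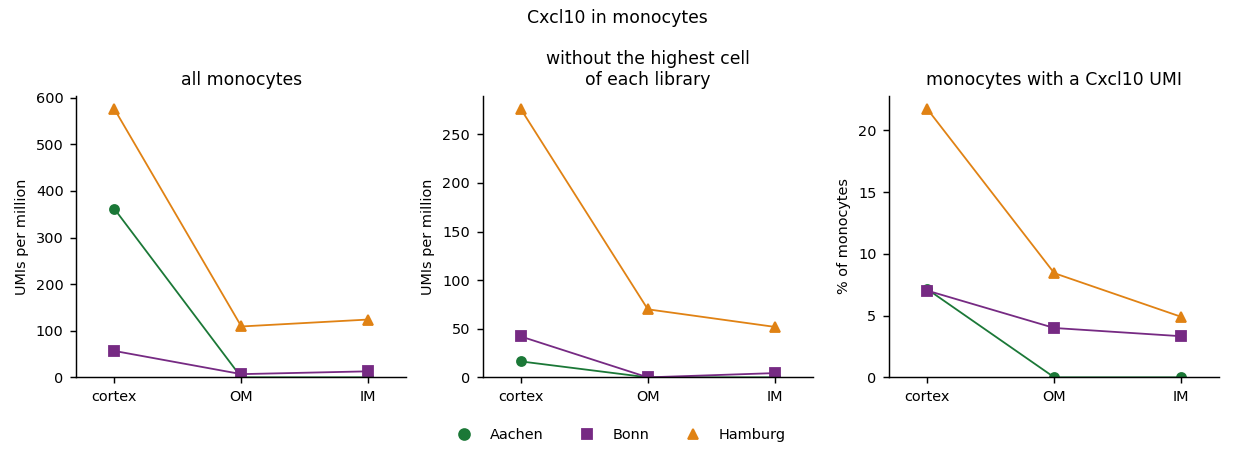
Cxcl10 in monocytes by compartment, with a line per dataset: CPM over all monocytes, the same without the highest cell of each library, and the percent of monocytes with a Cxcl10 UMI. The cortex is highest in the 3 datasets in each panel, and in Aachen it falls from 362 to 16.4 without a single cell.

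Interferon targets fell in the same monocytes. Of 16 tested, 4 were called lower, beside 0.232% of 6029 genes. All 16 had a log2 fold change below 0, with a median of -0.74 beside -0.01 over all genes. The 4 were Isg15 (-1.15 ± 0.19, adjusted p = 1.49e-05), Ifit3 (-1.14 ± 0.29), Ifi47 (-0.90 ± 0.22) and Irf7 (-0.71 ± 0.18). Of 13 NF-kappaB and inflammatory genes 1 was called lower, beside the same 0.232%. It was the inhibitor Tnfaip3 at -0.99 ± 0.21 (adjusted p = 0.00369 in edgeR). The 6 monocyte markers summed to 3820 to 5111 CPM in the cortex libraries and 3072 to 4810 in the medulla libraries. The resident macrophage markers summed to 1455 to 3091 and 1446 to 4224.

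The other members tested in monocytes were not called between medulla and cortex. Cxcl2 gave -0.59 ± 0.18 with an adjusted p of 0.215 and Cxcl9 -1.32 ± 0.43 with an adjusted p of 0.357, and both changed sign without Hamburg (0.52 and 2.19). Both were called lower without Bonn (-1.08 and -2.68, adjusted p of 5.54e-10 and 3.64e-06 in edgeR). The Cxcl9 values rest on single cells. In Hamburg cortex 1 of 69 monocytes held 92.1% of the Cxcl9 UMIs, and in Aachen OM 1 of 29 held all 19. In OM against cortex Cxcl2 was called at -0.95 ± 0.23 (adjusted p = 0.0221 in edgeR), although it was higher in OM than in cortex in Bonn (90.0 against 23.2 CPM). DESeq2 gave -0.47 with an adjusted p of 0.999, and without Hamburg edgeR gave 0.16. Cxcl16 gave -0.59 ± 0.26 with an adjusted p of 0.999.

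The difference of the compartment effect between resident macrophages and monocytes was tested over 9126 genes. Of all these genes 5 passed, and none of the members did. It was 3.45 ± 0.85 on the log2 scale for Pf4 (adjusted p = 0.160), 1.96 ± 0.65 for Cxcl10 (adjusted p = 0.567) and 6.27 ± 1.43 for Cxcl1 (adjusted p = 0.107), in edgeR with an interaction term. All Pf4 UMIs of the Hamburg cortex monocytes, 20.9, came from 1 cell, and so did all their Cxcl1 UMIs, 22.0. Cxcl1 did not pass the filter in the fit of monocytes alone. In T cells Pf4 gave 1.76 ± 0.75 with an adjusted p of 0.815, and its difference from macrophages was -0.22 ± 0.75. The effect in macrophages was thus not shown to differ from that in T cells.

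In B cells, T cells, NK cells, ILC2, cDC1 and cDC2 no member was called between medulla and cortex in any of 18 tests by edgeR or by DESeq2, with 7 and 6 unadjusted p-values under 0.05. The lowest adjusted p in edgeR was 0.102, for Cxcl2 in cDC1. The background shares were 0.0895, 0.0335, 0.0299, 0.359, 0.0634 and 0.304% of genes in the order of the classes. In OM against cortex, Cxcl2 in cDC1 was called at 3.58 ± 0.53 (adjusted p = 0.00411 in edgeR, 1 of 3 members beside 0.127%), while DESeq2 gave 3.39 with an adjusted p of 1. This value rests on the Hamburg OM library, at 219 CPM against 17.9 in its cortex, where 1 of 58 cells held 94.1% of the Cxcl2 UMIs, since Cxcl2 was at 0 in Aachen OM and the Bonn OM library held 7 cDC1 and was left out. In Isg+_Macrophage none of 5 members was called (0.107% of 1876 genes were), with 2 unadjusted p-values under 0.05 in edgeR and 1 in DESeq2. No fit was made in neutrophils, of which 3 of the 9 libraries held fewer than 10 cells.

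The genes whose levels over the 21 clusters were most like each member were ranked by Pearson's r of the mean log2 level, among 10774 genes. These values describe clusters that share libraries and depth, and no p is given. For Pf4 they were Ccl12 (0.95), Pmp22, Kcnj10, Vcam1 and Lilra5 (0.94). For Cxcl16 they were P2ry6 (0.97), Pid1, Adap2 and Cttnbp2nl (0.95). For Cxcl2 they were Nfkbiz (0.89), Ets2, Ptgs2, Il1r2 and Csf3r (0.85), of which Csf3r and Il1r2 are receptors of neutrophils. For Cxcl1 they were Slc6a12 (0.83), Cxcl2 (0.78), Bmp2, Alox5 and Sec14l1 (0.73). For Cxcl9 they were Slamf8 (0.90), Capza2, Batf2, Phf11d and Procr (0.87). For Cxcl10 they were Isg15 (0.76), an interferon-induced modifier, Cdkn1a, Il18bp, Cln8 and Ifit1 (0.69). Cxcl1 was the only member with another member among its 5.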

How the data were processed

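Immune cells of 3 kidney compartments were measured in 3 datasets. According to the submitters' notes and the methods, the authors mapped reads with Cell Ranger to mm10 and filtered (200 to 4000 genes, at most 20% mitochondrial UMIs) and clustered cells with Seurat; doublet treatment is not given in the sources used here. The deposited values are expected counts of UMIs per gene and cell, without scaling by the authors; Hamburg values are not whole, for a reason not given in the sources used here, so sums were rounded. The members and lists were chosen with earlier results of these data known.

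Counts were summed per library and class (at least 10 cells), rounded, and put through the filterByExpr filter and TMM scaling. Contrasts came from glmQLFTest (edgeR 4.0.16, R 4.3.3) with a term for the dataset as replicate block. The procedure was run on counts simulated from its own model. These held no differences in cluster makeup and no single high cells, so that calls depending on either were not checked by it. P-values were adjusted by Benjamini-Hochberg over all genes, with a threshold of 0.05. DESeq2 1.42.0, limma 3.58.1, exact permutation tests within datasets (Python 3.11.15, scipy 1.17.1), thinning to 500 UMIs, and leaving out each dataset, library or cluster were alternatives. Datasets pair the libraries, because deviations from the compartment means over 8687 genes correlated at 0.815 to 0.914 within datasets (9 pairs). Between datasets they correlated at -0.872 to 0.481 (27 pairs). Subtracting the mean of the 3 datasets lowers the values between them by construction, so only those within datasets are read. They do not show whether compartments share animals. Named genes are the members, list genes past the threshold, Cxcr2, Cxcr3, Cxcr6, Ppbp, Gp9, Itga2b and, per member, the 5 genes most like it over clusters among genes with at least 200 UMIs. Some results that fall under these rules are not reported here. Other genes were named after their values were seen.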

Additional observations from a re-analysis of the deposited data

Results flagged for a closer look

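UMIs of members were also counted in clusters that hold fewer than 10 cells in 1 dataset and so stood outside the order of clusters. In B_cell_3, Cxcl16 was at 96.5 CPM in Bonn (21 cells) and Cxcl2 at 56.6 in Hamburg (225 cells). In pDC, plasmacytoid dendritic cells, Cxcl16 was at 15.5 in Bonn and 12.2 in Hamburg, Cxcl2 at 32.1 in Hamburg and Pf4 at 10.3 in Bonn (48 and 42 cells). These values exceed the limit that a count of 0 allows, but they rest on few UMIs (4 of Pf4 and 6 of Cxcl16 in the Bonn pDC), and the part of free RNA in them was not tested.

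The mean difference of Cxcl2 between medulla and cortex had the opposite sign in B cells (10.8 CPM) and in cDC2 (-66.7 CPM), with the same sign in the 3 datasets of each class. In Bonn this sign rests on 2 UMIs in B cells and 1 UMI in cDC2, and neither class was called in edgeR (adjusted p of 1 and 0.982). The difference between these classes was not tested.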

How the results depend on the processing

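The dataset pairs the libraries, and without the replicate block Pf4 in resident macrophages gave 1.5, Cxcl2 -0.36 and 0 genes were called, so no member was. Of 488 alternative values, 364 kept direction and side of the threshold, 24 lost and 18 gained the call, 50 reversed and 32 counts or levels moved. Pf4 lost its call with limma and equal cluster weights (1.56) and without Macrophage_3 (1.22), where 6 genes and 0 members were called. The limma fit called 0 genes and gave Cxcl2 -0.0355 and Cxcl9 0.61. Without Macrophage_1, 2 members rose, Cxcl1 gave 6.11, Cxcl2 -0.0829 and Cxcl16 0.0219. Cxcl1 gave -0.10 without cells holding T or B cell markers. Cxcl9 gave 0.11 after thinning, 0.43 without Isg+_Macrophage and 0.32 without Macrophage_3, and Cxcl16 gave 0.0204 and 0.0369 after thinning and without Macrophage_3. Cxcl10 gave -0.57 without the filter on low counts, which called 1 member lower. DESeq2 gave 0.92 and 1.15 for Pf4 in Macrophage_1 (medulla, OM) and 1.15 in Macrophage_2 (OM), 0.74 for Cxcl1 in Macrophage_1 and -0.0177 for Cxcl2 in Macrophage_2. Genes called numbered 108, against 48 with DESeq2, 26 after thinning, 382 without the filter and 68 with Malat+_Macrophage. The cause was not tested.

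Leaving out 1 dataset or library at a time moved these values. For medulla against cortex, resident macrophages, values ranged from 1.29 to 1.76 for Pf4, from -0.38 to 0.83 for Cxcl2, from -0.86 to 0.46 for Cxcl9, from -1.27 to -0.0784 for Cxcl10, from -0.0501 to 0.0297 for Cxcl16, from 6 to 262 for genes called, from 0 to 1 for members called higher, from 0 to 1 for members called lower. For OM against cortex, resident macrophages, values ranged from 1.59 to 1.99 for Pf4, from -0.44 to 0.0176 for Cxcl2, from -1.16 to 1.07 for Cxcl9, from -1.62 to 0.44 for Cxcl10, from -0.0879 to 0.00343 for Cxcl16. For IM against cortex, resident macrophages, values ranged from 0.95 to 1.58 for Pf4, from -0.32 to 1.65 for Cxcl2, from -0.0638 to 0.0282 for Cxcl16. For OM against IM, resident macrophages, values ranged from -0.60 to 1.69 for Cxcl9, from -0.93 to 1.28 for Cxcl10, from -0.0817 to 0.0672 for Cxcl16. For medulla against cortex, Macrophage_1, values ranged from 0.76 to 1.16 for Pf4, from -0.44 to 2.43 for Cxcl1, from -0.0823 to 0.49 for Cxcl2. For medulla against cortex, Macrophage_2, values ranged from -0.20 to 0.17 for Cxcl2, from -0.96 to 0.59 for Cxcl10. For medulla against cortex, monocytes, values ranged from -1.09 to 0.52 for Cxcl2, from -2.93 to 2.19 for Cxcl9. For OM against cortex, Macrophage_1, values ranged from 0.84 to 1.46 for Pf4. For OM against cortex, Macrophage_2, values ranged from 0.84 to 1.34 for Pf4.

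Leaving out single libraries, the monocytes without their highest cell and the permutation tests on single classes were chosen after seeing the data. Without Hamburg, Cxcl10 in monocytes had no fit.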
